A study of Mus musculus with 383 samples.

Results

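The 35 genes described here act in G2 and mitosis, the phases in which a cell that has copied its DNA assembles a spindle, separates its chromosomes and divides. They were taken as a fixed list of gene symbols, and all 35 were found among the 49585 genes of the count table. Their transcripts were read in single tumour cells of mouse skin squamous cell carcinoma, sorted from tumours of mice carrying Lgr5CreER, p53fl/fl and Rosa26-YFP, among other alleles. In such mice the Cre is active only in cells that express Lgr5, a gene of hair follicle stem cells, and recombined cells carry YFP, so that both groups share the same genotype, with the loss of p53 and the YFP reporter. Neither the age of the mice nor how many mice or tumours were used is stated in the labels. YFP-positive cells were sorted into wells of a 384-well plate as Epcam-positive or Epcam-negative, Epcam being an adhesion protein of epithelial cells, and were sequenced by Smart-seq2, which amplifies full-length cDNA and has no molecular identifiers.

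A cell entered the analysis if it had 100000 gene reads or more, 2000 detected genes or more, no more than 20% mitochondrial reads and no more than 50% spike-in reads. These limits removed 8 of 70 Epcam-positive and 47 of 310 Epcam-negative cells and left 325 cells, 62 of them Epcam-positive, with medians of 413142 and 414731 gene reads per cell. The labels name no animal, so each population is 1 sample, cells are not replicates, and no test between populations was made. Intervals are exact 95% intervals and cover counting error only. Plate rows A to C held the Epcam-positive wells and the remaining rows the Epcam-negative ones, and the effects of population and row cannot be told apart. Of the 62 Epcam-positive cells, 62 held at least 2 of 8 keratinocyte markers, as did 89 Epcam-negative cells (33.8%). At least 2 of 5 mesenchymal markers were present in 3 and 250 cells. The leukocyte marker Ptprc was present in 0 of 325 cells, which allows a share of up to 0.923%, and at least 2 of 8 immune markers were present in 1 Epcam-positive and 2 Epcam-negative cells.

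Entry into mitosis is driven by Cdk1 bound to cyclins A and B, and the Aurora and Polo-like kinases then act on centrosomes, chromosomes and the spindle. Kinetochore proteins attach chromosomes to microtubules, the checkpoint kinases hold the cell until all are attached, and the anaphase-promoting complex with Cdc20 and Ube2c then marks cyclin B for destruction. Most of these genes are transcribed periodically, with transcripts rising through S and G2. In textbook accounts the DREAM complex represses them in resting cells and MuvB with B-Myb and FoxM1 activates them in cycling cells. MuvB contacts a promoter element called CHR, often near CCAAT boxes that bind NF-Y.

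The promoters of the members carried these elements often. RefSeq promoters (GRCm38.p6, 300 bases, of which 250 lie before the start and 50 after it) were at hand for 30 of the 35 members, not for Ccna2, Tpx2, Aurkb, Kif20a and Smc4. The CHR letters TTTGAA, searched on both strands, were in 22 of 30 member promoters (73.3%) and in 18.1% of 27025 promoters of the same length. They lay within 50 bases of the start in 20 of 30 (66.7%), against 4.92% of all promoters. The NF-Y letters CCAAT, on both strands, were in 23 of 30 (76.7%) against 37.9%, and 2 or more copies in 17 of 30 (56.7%) against 12.2%. Both elements together were in 19 of 30 (63.3%) against 7.12%. The CHR-like letters TTTAAA were in 9 of 30 (30.0%) against 13.2%, and the E2F letters TTTGGCGC or TTTCCCGC in 0 of 30 against 1.63%. Matches of different motifs shared a base in 1 member promoter. A match describes letters only and is not a measured binding site.

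The 130 bases before the RefSeq start of 6 members are given to show how these elements lie. In this stretch Cdk1, Cdc20 and Top2a hold both elements, Mki67 holds only the CHR, Hmmr only NF-Y boxes, and Tacc3 neither. The longer promoters used for the counts above also held NF-Y boxes of Mki67 further before the start and a CHR of Hmmr after it. Both genes thus had both elements there, and Tacc3 had neither. Capitals mark TTTGAA and CCAAT on either strand (TTCAAA and ATTGG are their reverse complements), and the last base printed is the one before the start.
Cdk1, chr10:69352913-69353042, minus strand: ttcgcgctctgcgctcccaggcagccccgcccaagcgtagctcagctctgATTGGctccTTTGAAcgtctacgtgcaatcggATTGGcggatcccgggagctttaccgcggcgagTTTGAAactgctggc
Cdc20, chr4:118437344-118437473, minus strand: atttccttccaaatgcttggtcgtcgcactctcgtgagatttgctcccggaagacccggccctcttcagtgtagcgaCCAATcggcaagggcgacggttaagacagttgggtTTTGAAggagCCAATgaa
Top2a, chr11:99024190-99024319, minus strand: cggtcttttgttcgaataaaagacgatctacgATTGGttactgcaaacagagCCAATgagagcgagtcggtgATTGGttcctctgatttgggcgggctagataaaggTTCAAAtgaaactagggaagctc
Mki67, chr7:135716380-135716509, minus strand: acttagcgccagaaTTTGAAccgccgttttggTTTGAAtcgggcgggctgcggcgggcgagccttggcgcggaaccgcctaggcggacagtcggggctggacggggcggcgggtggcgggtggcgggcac
Hmmr, chr11:40733438-40733567, minus strand: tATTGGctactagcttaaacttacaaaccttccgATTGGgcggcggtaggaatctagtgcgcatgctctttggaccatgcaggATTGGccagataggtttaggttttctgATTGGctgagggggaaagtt
Tacc3, chr5:33657998-33658127, plus strand: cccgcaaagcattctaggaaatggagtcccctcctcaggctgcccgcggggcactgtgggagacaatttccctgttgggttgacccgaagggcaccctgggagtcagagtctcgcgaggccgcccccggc
Of the 49 cells that held 10 or more of the 35 genes, Cdk1 was present in 38, Cdc20 in 40 and Top2a in 38. Mki67 was present in 35 of them, Hmmr in 29 and Tacc3 in 41. A link between these counts and the motifs was not tested.

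The members were concentrated in few cells of each population. To put all cells at the same depth, 100000 gene reads were drawn at random from each, and a gene counted as present with 5 or more of them, or 50 counts per 1000000 gene reads (CPM). In Epcam-positive cells the number of the 35 genes present ran from 0 to 32 with a median of 2, and in Epcam-negative cells from 0 to 34 with a median of 1. All members were missing from 11 Epcam-positive cells (17.7%, 9.20 to 29.5%) and from 64 Epcam-negative cells (24.3%, 19.3 to 29.98%). At the other end, 10 or more members were present in 19 Epcam-positive cells (30.6%, 19.6 to 43.7%) and in 30 Epcam-negative cells (11.4%, 7.83 to 15.9%), and these intervals do not overlap. These cells are called mitotic-gene-rich below, which is a range of a count and not a cell type. Only 3 Epcam-positive and 7 Epcam-negative cells lay near the mark, with 8 to 11 members.

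**Figure D1:**
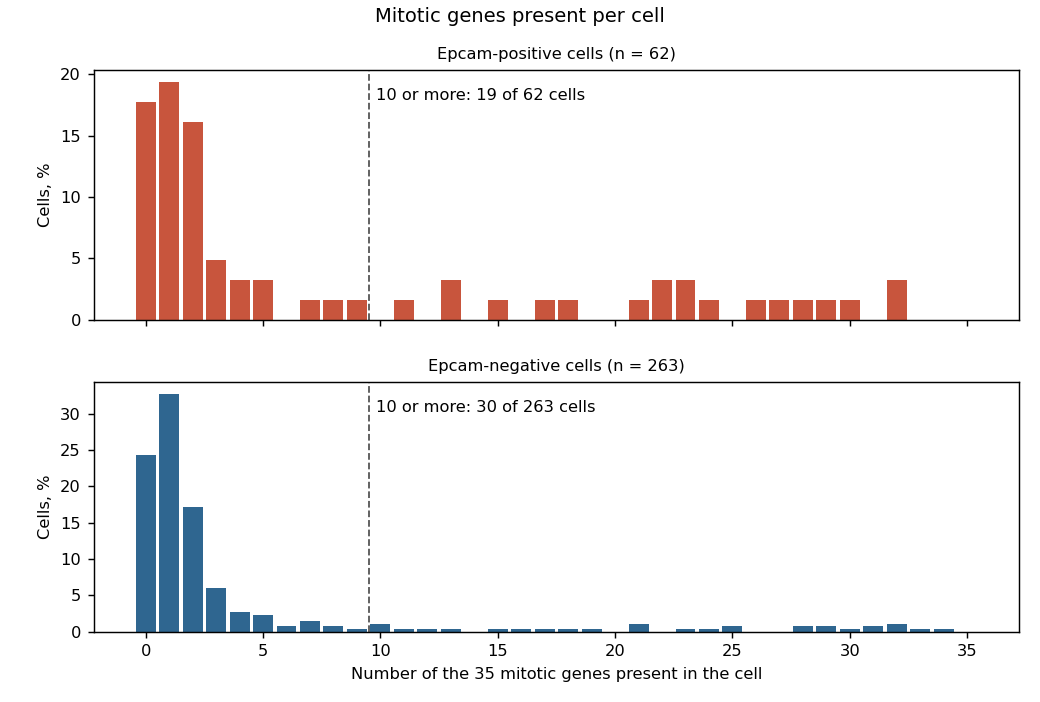
Percent of kept Epcam-positive (top, 62) and Epcam-negative (bottom) cells (vertical axes) by the number of the 35 mitotic genes present (horizontal axis). Most cells sit at 0 to 4 genes and a long thin tail reaches 32 and 34, with 19 and 30 cells at or right of the dashed mark of 10.

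The share of mitotic-gene-rich cells was higher among Epcam-positive cells in both sets of plate columns. It was 25.8% (8 cells, 11.9 to 44.6%) against 12.1% (17 cells, 7.24 to 18.7%) in columns 1 to 12, and these intervals overlap. In columns 13 to 24 it was 35.5% (11 cells, 19.2 to 54.6%) against 10.6% (13 cells, 5.75 to 17.4%), with intervals apart. With 15 members as the mark the shares were 25.8% and 9.13%, and with 30 members 4.84% and 3.04%. Mitotic-gene-rich cells held 87.3% of all member reads among Epcam-positive cells and 78.04% among Epcam-negative ones. The summed level of the 35 genes ran from 2137 to 19855 CPM (median 5855) in rich Epcam-positive cells and from 1259 to 15072 CPM (median 6363) in rich Epcam-negative cells. In the remaining cells it reached at most 2037 and 1416 CPM, so that rich and other cells overlapped in this sum by 1 Epcam-negative cell.

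Across the 35 genes, 33 had a lower summed level in Epcam-negative than in Epcam-positive cells. The median log2 ratio, with Epcam-negative as numerator and 1 CPM added to both levels, was -1.03, and single genes ran from -1.82 to 0.37. Of the 35, 19 were 2-fold or more lower in Epcam-negative cells and 0 were 2-fold or more higher. Of 9574 genes with 10 CPM or more in either population, 53.9% were lower, 12.9% by 2-fold or more, and 15.3% were 2-fold or more higher. Their median was -0.08. All members but Ttk passed that 10 CPM mark. With the cells of plate columns 1 to 12 alone, 28 of 35 were lower and 11 by 2-fold or more, and with columns 13 to 24 alone 33 and 27. The remaining pair, Prc1 and Anln, were higher in Epcam-negative cells by less than 2-fold. Intervals of a ratio were computed from the reads without the added 1, so the ratio does not sit in their middle.

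Among the cyclins, their kinase and its partner, all 5 were lower in Epcam-negative cells, 3 of them 2-fold or more. Ccnb1, cyclin B1 (ENSMUSG00000041431.16, chr13:100778650-100786570, minus strand), had a read in 45.2% of Epcam-positive and 21.7% of Epcam-negative cells, and its 90th percentile over cells was 284.4 and 35.4 CPM with highest cells of 822 and 468 CPM. The cells of the populations thus overlapped, with most cells of each at 0 and a longer upper tail in the Epcam-positive one. Summed over cells Ccnb1 was at 66.7 CPM (63.5 to 70.0) and 21.2 CPM (20.4 to 22.1), a log2 ratio of -1.61 (-1.74 to -1.56). Cdk1, the kinase that starts mitosis (ENSMUSG00000019942.12, chr10:69335146-69352938, minus strand), ran from 0 to 1640 CPM over Epcam-positive cells (median 4.64) and from 0 to 1232 CPM over Epcam-negative cells (median 0). Its summed level was 190.9 CPM (185.5 to 196.4) and 79.4 CPM (77.7 to 81.1), a log2 ratio of -1.26 (-1.32 to -1.21). Ccna2, cyclin A2, which acts in S phase and G2, had a log2 ratio of -1.27, although 12.5% of its exon length overlaps Exosc9 on the opposite strand. Cks2, a small Cdk-binding protein, was at 27.7 and 13.6 CPM (log2 ratio -0.97).

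Ccnb2, cyclin B2, stood apart from Ccnb1. It was at 64.5 CPM (61.4 to 67.7) in Epcam-positive and 54.5 CPM (53.1 to 55.9) in Epcam-negative cells, with a log2 ratio of -0.24 (-0.32 to -0.16). A single Epcam-positive cell held 20.6% of its reads there. The ratio was 0.41 with plate columns 1 to 12 but -1.32 with columns 13 to 24, so that its direction differed between the column sets.

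The mitotic kinases and Tpx2, a spindle protein that activates Aurora A, were all lower in Epcam-negative cells, 2 of 3 by 2-fold or more. Aurka, the Aurora A kinase of centrosomes, was present in 17 (27.4%) and 21 cells (7.98%), with 53.5 and 18.7 CPM and a log2 ratio of -1.47 (-1.62 to -1.42). In the Epcam-negative population 1 cell held 21.9% of its reads. Plk1, the Polo-like kinase, was present in 10 and 19 cells and had 28.02 and 12.9 CPM, a log2 ratio of -1.07, and 7.09% of its exon length overlaps Gm44985 on the opposite strand. Tpx2 was at 37.3 and 24.97 CPM (log2 ratio -0.56).

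The chromosomal passenger complex corrects faulty attachments of chromosomes and includes the kinase Aurkb, Birc5 (survivin) and Cdca8 (borealin). Birc5 (ENSMUSG00000017716.15, chr11:117849251-117855743, plus strand) and Cdca8 had the lowest ratios of the 35, both -1.82. Birc5 was present in 26 of 62 Epcam-positive (41.9%, 29.5 to 55.2%) and 38 Epcam-negative cells (14.4%, 10.4 to 19.3%). Cdca8 was present in 23 (37.1%, 25.2 to 50.3%) and 27 cells (10.3%, 6.88 to 14.6%), with summed levels of 93.2 and 25.6 CPM. Intervals of the shares do not overlap for either gene. Aurkb was at 35.9 and 18.9 CPM (log2 ratio -0.89).

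All 8 kinetochore and checkpoint genes were lower in Epcam-negative cells, 3 of them 2-fold or more. Cenpa, the histone H3 variant of centromeres, was present in 27 (43.5%, 30.99 to 56.7%) and 42 cells (15.97%, 11.8 to 20.97%), with 167.7 and 56.7 CPM and a log2 ratio of -1.55. Cenpe, a kinetochore motor, had a log2 ratio of -1.51, and Nuf2, a subunit of the Ndc80 complex that binds microtubules, -1.16. Its partner Ndc80 was at 18.7 and 15.2 CPM (log2 ratio -0.28), and the sign turned with the plate columns, at -0.61 with columns 1 to 12 but 1.05 with columns 13 to 24. The checkpoint kinases Bub1 and Ttk and the checkpoint protein Bub1b had log2 ratios of -0.94, -0.19 and -0.63. In plate columns 1 to 12 the ratios were 0.36 for Ttk and 0.15 for Bub1b, so that their direction turned there. Ttk was present in only 4 (6.45%) and 10 cells (3.80%), and 25% and 25.6% of its reads came from 1 cell of each population. Without the cell with most member reads in each population the log2 ratio of Ttk was 0.17. Cenpf, a large kinetochore protein, had a log2 ratio of -0.88, which was 0.06 in plate columns 1 to 12, and 1 Epcam-positive cell held 20.8% of its reads there.

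All 5 spindle genes were lower by 2-fold or more. Tacc3, which stabilises spindle microtubules, was present in 22 (35.5%, 23.7 to 48.7%) and 47 cells (17.9%, 13.4 to 23.05%), and its log2 ratio was -1.08. The motors Kif11, which pushes spindle poles apart, and Kif2c, which takes microtubules apart at centromeres, had log2 ratios of -1.16 and -1.36. For Kif11 1 Epcam-positive cell held 33.7% of the reads, and for Kif2c 1 cell held 20.6% in the Epcam-positive and 25.6% in the Epcam-negative population. Nusap1, a protein of spindle microtubules, rested most on 1 cell, which held 43.7% of its Epcam-positive reads. Its log2 ratio was -1.21, with 25.1 and 10.3 CPM, and 14.2 and 8.79 CPM without the highest cell of each population. In plate columns 1 to 12 the log2 ratio of Nusap1 was -0.10. Hmmr, which binds hyaluronan and spindle microtubules, had a log2 ratio of -1.02, and 1 Epcam-negative cell held 26.1% of its reads there.

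The cytokinesis genes, which act as the daughter cells part, held both members that were higher in Epcam-negative cells. Prc1, which bundles the microtubules of the central spindle, was at 20.01 CPM (18.3 to 21.8) in Epcam-positive and 26.1 CPM (25.1 to 27.1) in Epcam-negative cells, with a log2 ratio of 0.37 (0.24 to 0.52). It was present in 8 and 35 cells (12.9 and 13.3%). Prc1 overlaps Rccd1 on the opposite strand over 11.1% of its exon length. Anln, anillin of the contractile ring, was at 33.4 CPM (31.1 to 35.7) and 37.9 CPM (36.8 to 39.1), a log2 ratio of 0.18 (0.08 to 0.29), and 1 Epcam-positive cell held 32.3% of its reads there. As the mean of each cell's CPM the log2 ratios were -0.06 for Prc1 and -0.58 for Anln, and scaled to spike-in reads that of Anln was -0.16. In plate columns 13 to 24 that of Anln was -0.43. The motor Kif20a was at 24.1 and 11.2 CPM (log2 ratio -1.04), and 29.3% of its exon length overlaps Cdc23. Ect2, which activates RhoA at the cleavage plane, had a log2 ratio of -0.84, with 20.1% of the Epcam-positive reads in 1 cell, and the motor Kif23 had -0.44.

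The 3 genes of chromosome structure were all lower by less than 2-fold. Mki67, the Ki-67 protein that coats mitotic chromosomes (ENSMUSG00000031004.8, chr7:135689784-135716361, minus strand), had a median of 1.52 CPM and a highest cell of 616 CPM in Epcam-positive cells, and a median of 0 and a highest cell of 1191 CPM in Epcam-negative cells. Summed over cells it was at 51.2 CPM (48.4 to 54.1) and 28.3 CPM (27.3 to 29.4), a log2 ratio of -0.83 (-0.95 to -0.76). Its share of cells differed more than its level, with 17 cells (27.4%, 16.9 to 40.2%) against 22 cells (8.37%, 5.32 to 12.4%). Top2a, the topoisomerase that untangles sister DNA (ENSMUSG00000020914.17, chr11:98992943-99024189, minus strand), was at 101.003 CPM (97.1 to 105.03) and 57.2 CPM (55.8 to 58.7), a log2 ratio of -0.81 (-0.89 to -0.75). It was present in 16 (25.8%) and 36 cells (13.7%).

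The anaphase-promoting complex genes and Cdca3 were all lower by 2-fold or more. Cdc20, the activator of the complex, was present in 21 (33.9%, 22.3 to 47.01%) and 35 cells (13.3%, 9.45 to 18.0%), and its log2 ratio was -1.66. Cdca3, which promotes mitotic entry, was present in 26 (41.9%, 29.5 to 55.2%) and 35 cells (13.3%, 9.45 to 18.0%), with 124.996 and 36.8 CPM and a log2 ratio of -1.74. Ube2c, the ubiquitin-conjugating enzyme of the complex, was at 131.3 and 63.7 CPM (log2 ratio -1.03). A single cell held 21.1% of its Epcam-positive reads, and 22.8% of its exon length overlaps Tnnc2.

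**Figure D2:**
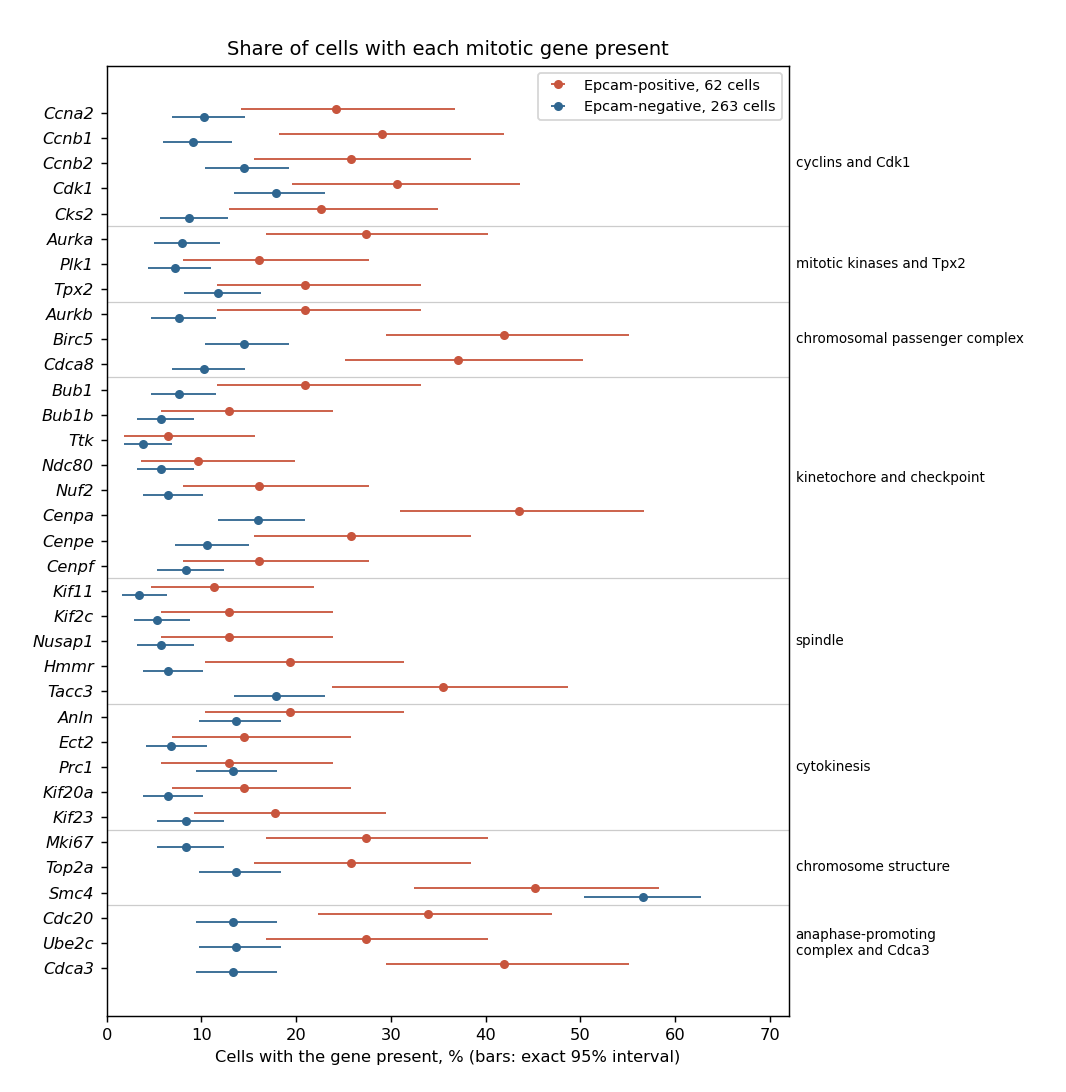
Percent of cells (horizontal axis) in which each of the 35 genes (rows, by role) was present, in Epcam-positive and Epcam-negative cells, with exact 95% intervals as bars. The Epcam-positive point lies to the right for 33 genes, with intervals apart for 14, and Smc4 and Prc1 go the other way. Over 8115 genes present in at least 5 cells of each population 66.3% had the smaller share in Epcam-negative cells. How often intervals lay apart was not computed over all genes.

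Per kilobase of exon, the levels of the members differed over a wide range. In Epcam-positive cells they ran from 1.80 CPM per kilobase for Ttk to 71.98 for Cdc20, and in Epcam-negative cells from 0.960 for Kif11 to 35.6 for Ccnb2. The next highest in Epcam-positive cells were Ube2c at 50.5 and Birc5 at 48.4 CPM per kilobase. In Epcam-negative cells Smc4 at 24.5, Ube2c at 24.5 and Cdc20 at 22.4 CPM per kilobase followed Ccnb2 and lay close together.

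The lower level in Epcam-negative cells went more with fewer cells that held a gene than with less of it in each such cell. For the 34 genes present in at least 5 cells of each population, which leaves out Ttk, the median log2 ratio of the shares of cells was -1.21, and 32 of 34 had the smaller share in Epcam-negative cells, 24 by at least 2-fold. Over 8115 genes measured in the same way 13.6% were 2-fold or more lower, with a median of -0.21. The median CPM over the cells in which a gene was present gave a median log2 ratio of -0.23, with 21 genes lower and 13 higher. By that measure 1 member was 2-fold or more lower and 1 higher, beside 1.96% of the 8115 genes that were 2-fold or more lower. For level within expressing cells, the median log2 ratio of those 8115 genes was 0.03, and 47.2% of them were lower. How many of them were at least 2-fold higher is not given. The difference in share was larger in size than the difference in level for 30 of 34 genes. Since presence needs about 50 CPM, levels within expressing cells have a floor and can differ less than shares.

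**Figure D3:**
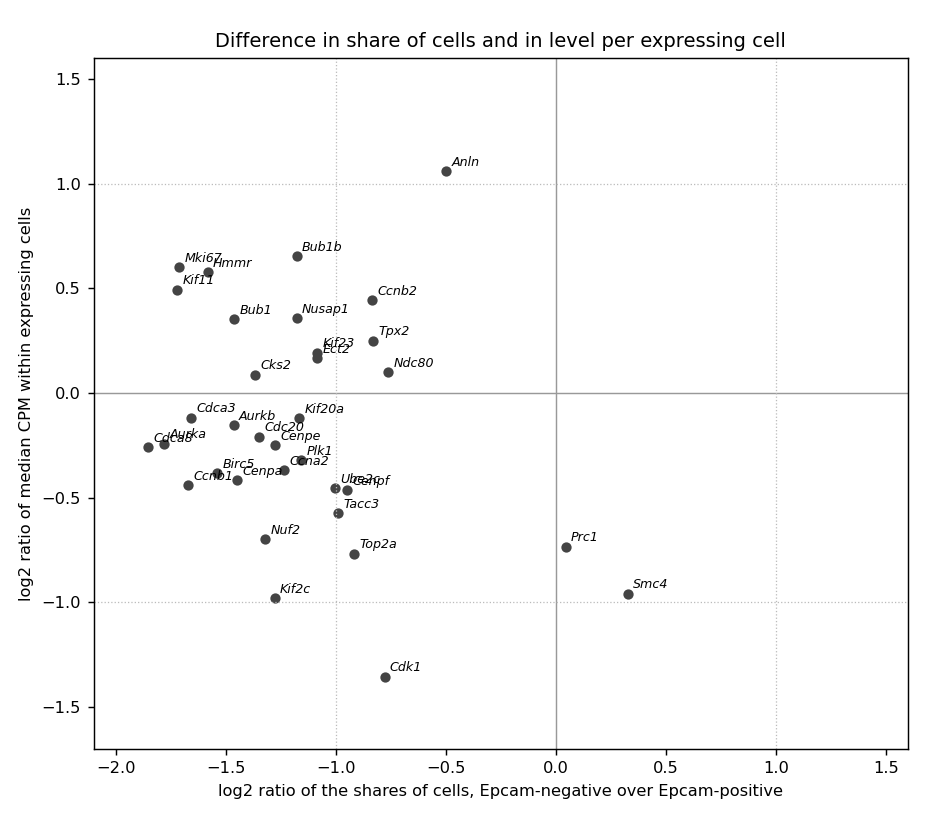
Each point is 1 of 34 genes: horizontal axis, log2 ratio of the shares of cells with the gene, Epcam-negative over Epcam-positive; vertical axis, log2 ratio of the median CPM within those cells (dotted lines: 2-fold). Most points spread to the left of 0 on the horizontal axis and around 0 on the vertical one, with Cdk1 lowest and Anln highest in level.

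Cdk1 and Anln were the members whose level within expressing cells differed by 2-fold or more. Cdk1 had a median of 619 CPM over the 19 Epcam-positive cells in which it was present (40.9 to 1640 CPM) and 241.9 CPM over 47 Epcam-negative cells (25.02 to 1232 CPM), a log2 ratio of -1.35. For Anln the medians were 103.96 CPM over 12 cells (46.02 to 1900 CPM) and 216.7 CPM over 36 cells (35.9 to 659 CPM), a log2 ratio of 1.06. In both cases the cells of the populations overlapped widely.

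Within the mitotic-gene-rich cells the 35 genes differed between the populations in both directions. Summed over the 19 and the 30 rich cells, the median log2 ratio of the 35 genes was 0.19, with 13 lower and 22 higher in Epcam-negative cells, 0 of them 2-fold or more lower and 3 higher. Those 3 were Prc1 (56.5 and 165.8 CPM, log2 ratio 1.54), Anln (98.7 and 244.9 CPM, 1.30) and Ttk (28.7 and 58.4 CPM, 1.00). All 5 cytokinesis genes were higher in rich Epcam-negative cells, with a median log2 ratio of 0.88. Birc5 was the lowest at -0.61, with 493 and 324 CPM. Rich cells were chosen by these genes, so these values describe the cells picked. The same ratios were not computed over all genes, so these counts have no background to be read against.

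**Figure D4:**
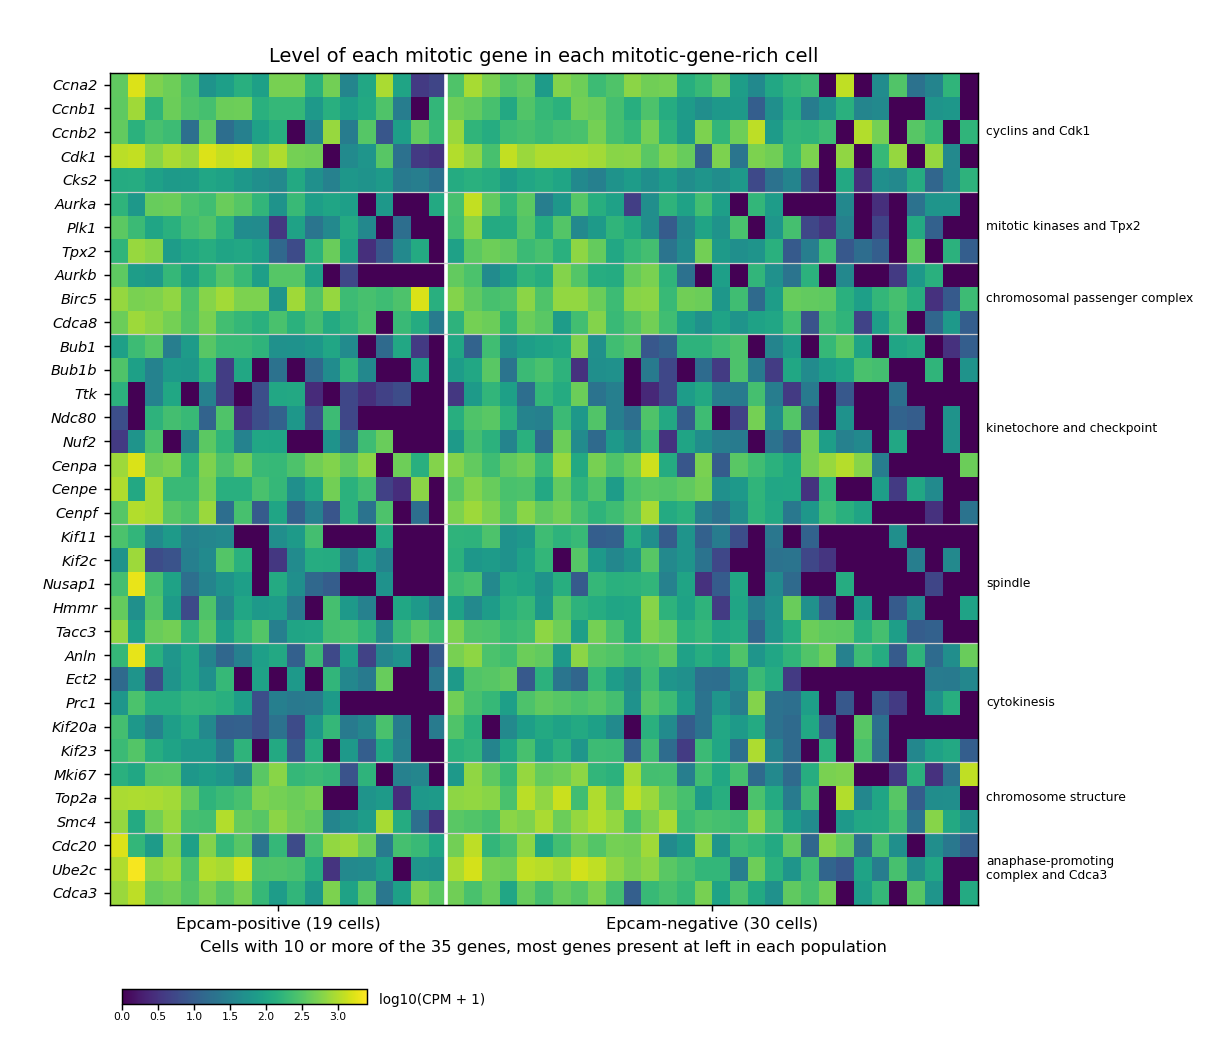
Level of each of the 35 genes (rows, by role) in each of the 19 Epcam-positive and 30 Epcam-negative cells with 10 or more of them (columns), as log10(CPM + 1) on the colour scale from 0 (dark) to above 3 (yellow). Birc5 and Smc4 are lit in most columns, whereas Ttk, Kif11 and Ndc80 are dark in many.

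Each member was also set against the other 34, so that it did not choose its own cells. Among cells with 10 or more of the other 34, the share with the member ran from 26.5% for Ttk to 93.8% for Birc5, with a median over the 35 genes of 65.3%. Among cells with at most 1 of the other 34, it ran from 0% to 47.8% with a median of 1.14%. For 9 genes it was 0 cells, among them Ccnb1, Ccnb2, Plk1, Bub1 and Hmmr with 0 cells each, which allows a share of up to 1.73%. Smc4 gave the 47.8%, and Prc1 the next highest value, 11 cells (6.04%). Spearman's rho of each member with the mean of the others, a description over cells that share library chemistry and depth, ran from 0.37 (Smc4) to 0.84 (Ccna2) over 62 Epcam-positive cells. Over the Epcam-negative cells it ran from 0.28 (Smc4) to 0.60 (Ccnb1).

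Smc4, a condensin subunit that compacts chromosomes (ENSMUSG00000034349.14, chr3:69004738-69034623, plus strand), was the member least tied to the rest. It ran from 0 to 1022 CPM over Epcam-positive cells (median 43.9) and from 0 to 1190 CPM over Epcam-negative cells (median 57.2). The cells of the populations overlapped over nearly their whole range. It was present in 28 Epcam-positive cells (45.2%, 32.5 to 58.3%) and in 56.7% of Epcam-negative cells ( 50.4 to 62.7%), and its summed log2 ratio was -0.36 (-0.41 to -0.31). Rich cells held 64.004% of its reads in the Epcam-positive population and 37.2% in the Epcam-negative one, the lowest of the 35 in both. Of 86 Epcam-negative cells with exactly 1 member, 58 had Smc4 as that member. Without Smc4, 27.4% of Epcam-positive and 46.4% of Epcam-negative cells held none of the other 34, and 19 and 27 cells held 10 or more.

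Cells with 5 to 9 of the 35 genes, 5 in the Epcam-positive and 15 in the Epcam-negative population, did not hold an even sample of them. Of these 20 cells, 12 each had Cdk1, Cenpa and Tacc3, 11 had Cdca3, 13 had Smc4, and 10 each had Birc5 and Ccnb2. Ccna2, Cks2, Plk1, Bub1b, Ttk, Ndc80, Cenpf, Kif11, Kif2c, Nusap1, Hmmr, Ect2 and Kif23 were present in 0 of the 20, which allows a share of up to 15% for each. Of the 49 rich cells, 39 had Ccna2, 28 had Plk1 and 30 had Cenpf. Cells with 2 to 4 genes, 83 in all, held mainly Smc4 (57 cells), Tacc3 (15), Cdk1 (13) and Cenpa (12). The classes count these same 35 genes, so higher shares in rich cells are largely set by how the classes were formed.

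**Figure D5:**
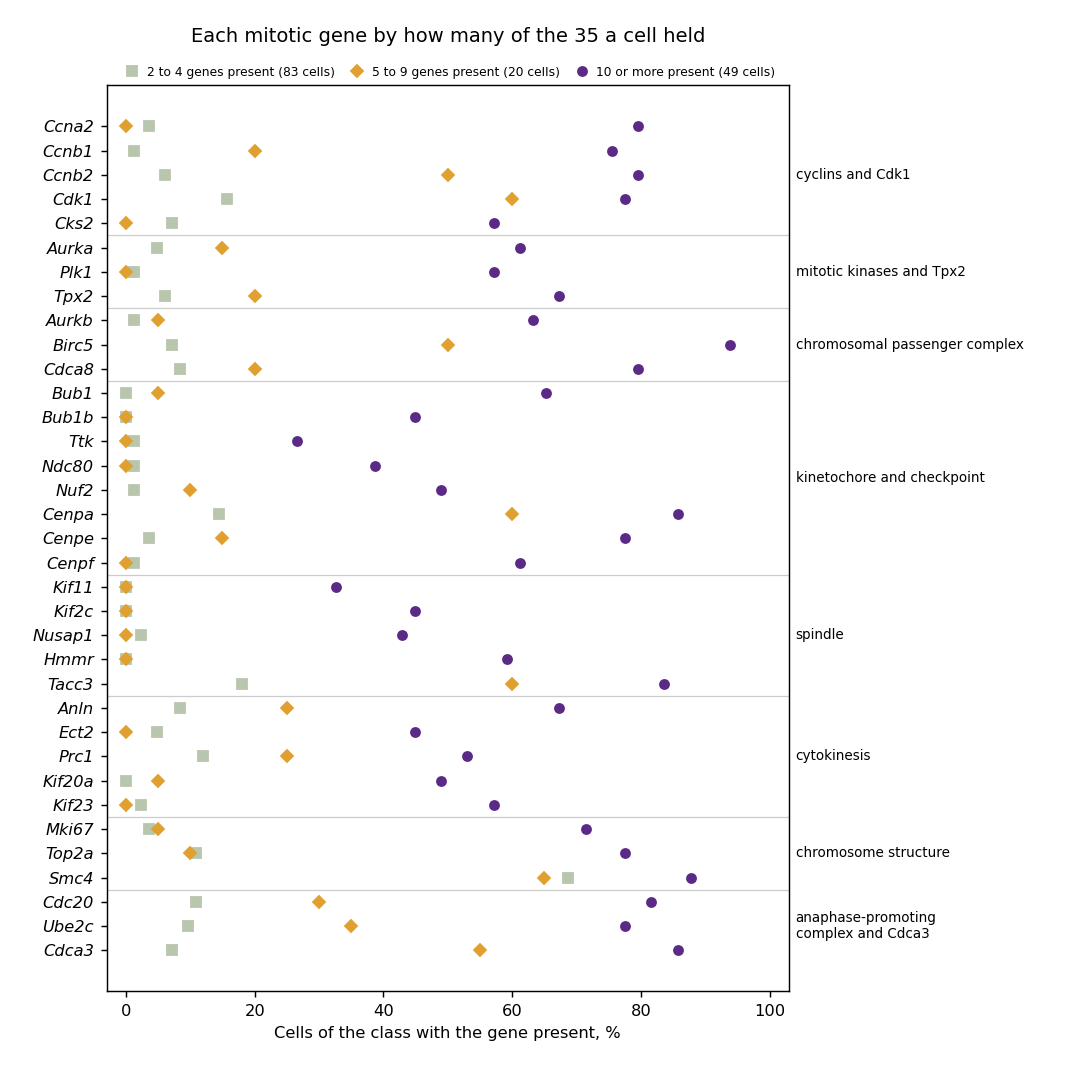
Percent of cells with each gene present (horizontal axis) among the 83 cells with 2 to 4, the 20 with 5 to 9 and the 49 with 10 or more of the 35 genes (both populations together). Diamonds reach 60% for Cdk1, Cenpa and Tacc3 and stand at 0 for Ccna2, Plk1 and Cenpf. The circles are to the right for every gene, which is largely set by counting these same genes to form the classes.

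Pairs of members were also unequal, and the shares of a pair differ because its genes were present in unequal numbers of cells. Of the 29 cells with Plk1, 28 had Birc5, while of the 64 cells with Birc5, 28 had Plk1. Of the 42 cells with Ccnb1, 40 had Birc5 and 35 had Cdk1, while 35 of 66 cells with Cdk1 had Ccnb1. Mki67 and Top2a were less nested, with Top2a in 29 of 39 cells with Mki67 and Mki67 in 29 of 52 cells with Top2a. Over the 49 rich cells, Spearman's rho of the 595 pairs had a median of 0.33 and ran from -0.21 (Ccna2 with Ccnb2) to 0.82 (Cdk1 with Ube2c), with 22 pairs below 0. These cells were chosen for holding many members, and the values are a description.

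Other features of the rich cells were read from genes that did not choose them. Of 36 S phase genes, a median of 14 were present in rich and 4 in other Epcam-positive cells, and 15.5 and 4 in Epcam-negative cells. At least 5 of them were present in 18 of 19 and 27 of 30 rich cells, against 34.9% and 38.2% of the other cells. Cdkn1a, the p21 inhibitor of cyclin-dependent kinases, had a median of 134.1 CPM in rich and 425 CPM in other Epcam-positive cells, and 37.02 and 74.2 CPM in Epcam-negative cells. Ccnd1, the G1 cyclin D1, had medians of 517 and 364 CPM, and of 730 and 95.7 CPM. The number of S phase genes overlapped between rich and other cells, at 3 to 27 against 0 to 25 in Epcam-positive and 1 to 26 against 0 to 25 in Epcam-negative cells.

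Rich cells also had more gene reads per spike-in read, a measure of RNA per well, with medians of 287.9 against 181.2 in Epcam-positive and 259.45 against 147.7 in Epcam-negative cells. Genes with a read in thinned cells had medians of 6293 against 5312 and 6000 against 5151. The part of RNA amount in the number of members present was not tested, beyond the thinning of every cell to the same number of reads.

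Among Epcam-negative cells the share of rich cells was 16% (20 cells, 10.1 to 23.6%) where the basal keratin Krt14 was present and 7.25% (10 cells, 3.53 to 12.9%) where it was not, and these intervals overlap. By how many of the surface genes Itgav, Itgb3 and Vcam1 were present it was 6.78% with 0 of them (4 cells), 12.8% with 1 (15 cells), 12.7% with 2 (10 cells) and 12.5% with 3 (1 cell). All of these intervals overlapped. Among Epcam-positive cells it was 10 of 31 with Vim, a mesenchymal filament gene, and 9 of 31 without. The fibrillar collagen Col1a1 had a median of 418 CPM in rich and 1610 CPM in other Epcam-negative cells, and was present in 27 of 30 and in 94.4%.

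Other lists of cell cycle genes did not all go one way. Of 48 measured further mitotic genes, 41 had the lower level in Epcam-negative cells and 20 were at least 2-fold lower. Their median log2 ratio was -0.80. Kntc1, a kinetochore protein, had a log2 ratio of -1.97, and Cenpm, a centromere protein, was at 34.3 and 9.89 CPM (log2 ratio -1.695). Pbk, a mitotic kinase, was at 76.7 and 21.0 CPM (log2 ratio -1.82), and Pttg1, securin, which restrains the enzyme that cuts sister chromatids apart, at 182.5 and 56.004 CPM (-1.69). Of 29 measured S phase genes, 29 were lower and 12 at least 2-fold lower. The median was -0.84. Ung, which removes uracil from DNA, was at 12.9 and 3.34 CPM (log2 ratio -1.68), and Gins1, a subunit of the replicative helicase, at 22.6 and 7.41 CPM (-1.49).

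Of 18 measured regulators of the programme, 12 were lower and 4 at least 2-fold lower. The median was -0.50. Mybl2, which encodes B-Myb, was at 13.8 and 2.79 CPM (log2 ratio -1.97), and was present in 11 of 49 rich cells and in 0 of the other cells, which allows a share of up to 1.09%. E2f8, a repressor of the E2F family, was at 17.2 and 4.42 CPM (-1.75). Foxm1 was at 14.98 CPM (13.5 to 16.6) and 15.7 CPM (14.98 to 16.5), a log2 ratio of 0.07, and was present in 19 of 49 rich cells and 4.35% of others. Of 8 G1 cyclins and partners 4 were lower and 4 higher, with Myc, a growth-promoting transcription factor, at 106.5 and 275.1 CPM (1.36) and Rb1, the retinoblastoma protein, at 31.6 and 19.4 CPM (-0.67). Of 7 inhibitors of cyclin-dependent kinases 5 were higher. Cdkn1c, the p57 inhibitor, was at 3.38 CPM (2.70 to 4.19) and 109.1 CPM (107.2 to 111.1), a log2 ratio of 4.65, and was present in 0 of 62 Epcam-positive cells, which allows a share of up to 4.84%, and in 38.8% of Epcam-negative cells. Cdkn1a went against it, at 540.6 and 258.96 CPM (-1.06).

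By Spearman's rho with the mean of the members' log2(CPM + 1) across cells, among 10438 genes, the 10 genes most like the members over 62 Epcam-positive cells were Cenpw, Pclaf, Racgap1, Ncapd2, Mad2l1, Pbk, Pttg1, Cit, Pmf1 and Smc2, with rho from 0.81 to 0.76. Over the Epcam-negative cells, among 10549 genes, they were Selenoh, Pclaf, Cks1b, Racgap1, Knstrn, Mcm6, Serbp1, Uhrf1, Diaph3 and Ranbp1, with rho from 0.60 to 0.55. Pclaf and Racgap1 were in both lists. Depth and RNA amount are shared by the genes of a cell, and no p was computed.

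Control wells bear on every share given above. The well set up with 0 cells in plate row B, among the Epcam-positive rows, held 99241 gene reads in 8248 genes and 7.66% spike-in reads. Its summed level of the members was 2348 CPM (2056 to 2669), beside 2274 CPM over the summed Epcam-positive cells. Of the 35 genes 33 had a read there and 17 had 5 reads or more, led by Birc5 (25 reads), Top2a (19), Cdk1 (18) and Smc4 (18). Krt14 was at 9029 CPM and Epcam at 695 CPM in it. The 0-cell well in row E held 4018 gene reads, 76.2% spike-in reads and 7 reads of the members. The well set up with 50 Epcam-negative cells held 154897 gene reads and 84 reads of the members, 542 CPM (433 to 671), beside 1071 CPM over the summed Epcam-negative cells, and 24 of the 35 genes had a read. The part of such reads in the values of single cells was not tested.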

How the data were processed

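Read counts per gene in 383 wells were deposited by the authors as raw counts, with no normalisation. Per the submitters' processing notes, reads were trimmed with cutadapt 1.13, aligned to GRCm38 with STAR 2.5.2b and counted with HTSeq 0.6.0. Which annotation release was used, and whether counting used strand, was not given in the sources used here. Reads of overlapping genes on opposite strands can therefore not be told apart. Symbols and positions come from GENCODE vM21, matched without version.

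For levels, the counts of each population's kept cells were added up and scaled to CPM of gene reads. For shares, cells were thinned to 100000 gene reads (seed 1). Intervals are Poisson for CPM, Clopper-Pearson for shares and conditional binomial for ratios, at 95%. With 1 sample per population, no model was fitted, and a 2-fold ratio stands in for a call. Scripts used Python 3.11.15, numpy 2.4.6, scipy 1.17.1 and pandas 2.3.3, with edgeR 4.0.16 in R 4.3.3 for TMM factors only. Summed ratios and thinned totals were tested on simulated counts in which all cells of a population shared a common profile. Shares, pairs and levels within expressing cells were not part of that test.

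All 35 members are accounted for. The naming rule picked, per role, the highest and lowest share and ratio, members against the median, and members with 20% or more of their reads in 1 cell. Mki67, Top2a, Ccnb1 and Cdk1 were always named. Some picked members, such as Kif11, Kif2c, Hmmr, Cenpf and Ect2, are given without levels, shares or intervals. From each other list the 2 to 4 genes with the largest log2 ratio in size are named, apart from the gene not reported. Foxm1 was named as a regulator beside Mybl2 after its values were seen, and Smc4, the pairs and the cells with 5 to 9 genes were singled out in the same way. Members and lists were chosen with earlier results of these data known. Alternatives covered cell filters, scaling, pseudocount, presence marks, the seed and plate columns. Doublets were not called, because the sort was set up to put 1 cell in each well and gated doublets out. Whether each well held 1 cell was not tested, and the 0-cell well of row B held 99241 gene reads. Part of the mice's genotype and 1 gene are not reported here.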

Additional observations from a re-analysis of the deposited data

Results flagged for a closer look

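The 2 wells set up with 0 cells lie outside the comparison of the populations, and both held more reads of the 35 genes than the limit that a count of 0 allows (3 reads, which is 30.2 CPM in the first and 746.6 CPM in the other). The well in plate row B gave a summed level of 2348 CPM (2056 to 2669 CPM), and the well in row E 1742 CPM from 7 reads (700.4 to 3590 CPM). The gene profile of the members in the row B well had a Spearman's rho of 0.78 with the summed Epcam-positive cells and 0.64 with the summed Epcam-negative cells across the 35 genes, which are not independent replicates. In number of genes (8248) it lay above the median kept Epcam-positive cell (6996), and with 99241 gene reads it lay just under the 100000 asked of a kept cell.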

How the results depend on the processing

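The lower level of the members in Epcam-negative cells kept its direction under every alternative tried. Against -1.03, the median log2 ratio of the members past the low-value mark was -0.91 with a stricter filter on cells, -1.36 as the mean of each cell's CPM, -0.91 with TMM factors, -0.95 with median-of-ratios factors, -1.37 with spike-in scaling, -0.72 with a pseudocount of 10 CPM, and -0.78 and -1.34 in plate columns 1 to 12 and 13 to 24. The scalings moved the ratios by 0.13, 0.08 and -0.35 (TMM, median of ratios, spike-in). Against 19, the members 2-fold or more lower numbered 12 with the stricter filter, 10 with a pseudocount of 10 CPM and 11 in columns 1 to 12, and between 14 and 27 otherwise. The share of cells with 10 or more members was 17.7% and 6.46% with presence at 20 reads, 18.6% in Epcam-negative cells with presence at 1 read, and 17.1% there with 5 members as the mark. The Epcam-positive share was 2.13 to 3.36 times the Epcam-negative one in these alternatives, which left out a mark of 30 members. At that mark the shares lay closer, at 4.84% (3 cells) and 3.04% (8 cells). The median log2 ratio of shares (-1.21) was -1.37 at 20 reads, -1.05 with the stricter filter, and -1.18 and -1.47 in the 2 column sets. The median ratio of levels within expressing cells (-0.23) was -0.15, -0.19, -0.27 and -0.27 in the same order, and -0.21 from means over those cells. Leaving Smc4 out of the members, an alternative chosen after seeing the data, gave 30.6% and 10.3%. Among the 29 members picked by the naming rule or always named, the sign changed 10 times, in 7 genes. These genes were within 2-fold over all kept cells, and Ndc80 was past 2-fold after the change (1.05 in columns 13 to 24). The remaining members were not part of this count. No paired analysis was possible because each population is 1 sample and replicate numbers only name cells. Reads without molecular identifiers limit precision further than the intervals show.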
